A study of Homo sapiens with 4 samples.

Results

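The genes described here encode cytoplasmic actin and the small proteins that hold actin monomers, sever or recycle filaments, or cap filament ends. They are ACTB, ACTG1, TMSB10, TMSB4X, PFN1, PFN2, CFL1, CFL2, CAPZB and CAP1. They were chosen by symbol, with earlier results of these data known, and all 10 were found among 61541 gene rows. Their RNA was counted in H1299, an established human lung carcinoma line grown in serum-containing medium, in 4 libraries of polyadenylated RNA. The control group of 2 libraries received phosphate-buffered saline (PBS), and the other group of 2 received ginseng nanoparticles. Neither the dose, the exposure time nor the part of the plant is given in the labels, and both nanoparticle titles also carry the word control, so grouping followed the treatment entry. Nothing states that replicates were separate cultures, so p-values measure only how far these libraries differ, and that spread may be technical.

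Actin exists as free monomers and as filaments, and a migrating cell pushes its edge forward by adding monomers to filament ends. Thymosins bind monomers and keep them in reserve, while profilin passes monomers to growing ends. Cofilin severs older filaments, cyclase-associated protein recycles the released monomers, and capping protein closes filament ends. The study asked whether ginseng nanoparticles hinder cancer cell migration, which gives these transcripts their place in it.

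Depth was 22252686 to 24979081 counts on genes per library. The cells carried the keratins KRT8 and KRT18 and the mesenchymal filament gene VIM at 586 to 2388 CPM (counts scaled to the size of each library, with TMM factors between libraries), whereas EPCAM and CDH1 were at 0.36 CPM or lower in every library. All 20 markers of fibroblasts, leukocytes, endothelium, muscle and red cells stayed at or below 0.843 CPM, and PTPRC, MYOD1 and HBB had no count at all. Because RNA was taken from whole cultures, fewer cells of a kind and less RNA per cell cannot be told apart. Reads aligned to several places made up 4.75% and 4.64% of reads with PBS and 4.51% and 3.51% with nanoparticles, and the part of this difference in the values below was not tested.

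In this gene group TMSB10 and PFN1 fell, no member rose and 8 did not pass (edgeR quasi-likelihood test, Benjamini-Hochberg adjusted over all genes, threshold 0.05). Those 2 of 10 compare with 0.83% of the 15778 tested genes called lower and 1.75% called higher. DESeq2 and limma-voom called no member higher either. At an unadjusted p under 0.05 there were 5 members, all lower, against 7.61% of tested genes lower and 9.18% higher at that p. All 10 passed the filter on low counts. The log2 fold change was below 0 in 8 members, with a median of -0.045, against 0.00056 over all tested genes. In 6 members every nanoparticle library lay below every PBS library, which held for 23.2% of tested genes. The reverse order was seen in no member and in 23.7% of tested genes. Neither TMSB10 nor PFN1 passed by DESeq2's Wald test, without a low-count filter, with the relation to transcript length removed, or after leaving out any of the 4 libraries. Without a low-count filter no gene at all passed, so that setting cannot single out TMSB10 and PFN1. Leaving out a library left a single one in its group. The log2 fold change then ran from -0.13 to -0.084 for TMSB10 and from -0.11 to -0.07 for PFN1. Together the 10 genes took 0.987% and 1.01% of gene counts with PBS, and 0.98% and 0.961% with nanoparticles.

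**Figure D1:**
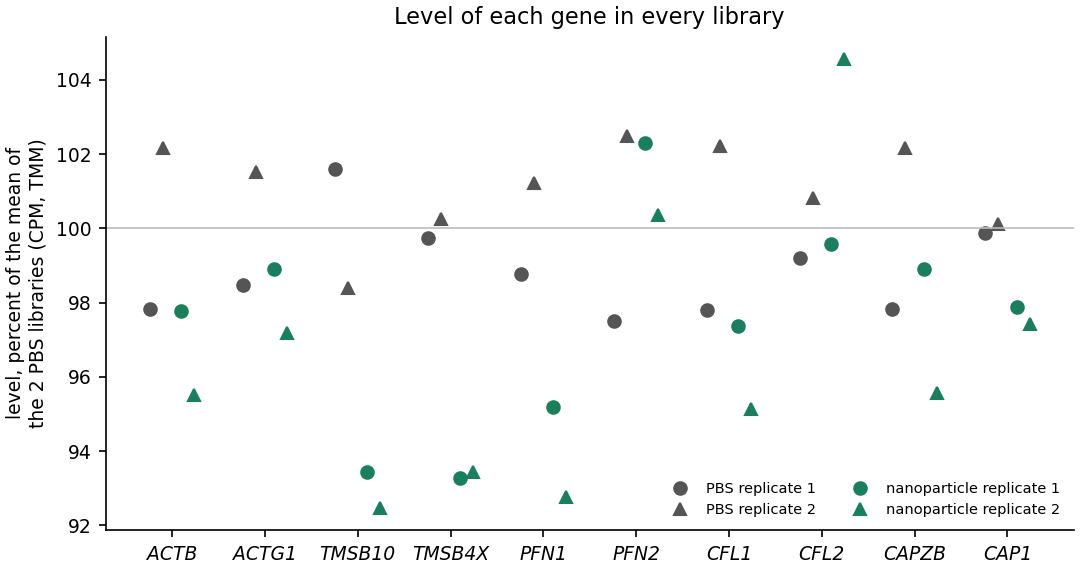
Level of each of the 10 genes in every library, as a percent of the mean CPM of the 2 PBS libraries (vertical axis, which does not start at 0); grey marks are PBS, green marks nanoparticle, circles replicate 1 and triangles replicate 2. The green marks lie below both grey marks for TMSB10, TMSB4X and PFN1 by a clear margin, and among or close to them for ACTG1, PFN2, CFL2 and CAPZB.

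The filament itself is built from beta-actin (ACTB) and gamma-actin (ACTG1), nearly identical proteins that all non-muscle cells make. ACTB was at 2675 and 2794 CPM with PBS and at 2674 and 2612 CPM with nanoparticles. PBS replicate 1 and nanoparticle replicate 1 were almost level, so the groups only just failed to overlap. The log2 fold change was -0.049 with a standard error of 0.02, which did not pass (edgeR adjusted p = 0.217). It was -0.082 without PBS replicate 1 and -0.018 without PBS replicate 2. ACTG1 was at 3249 and 3349 CPM with PBS and at 3263 and 3206 CPM with nanoparticles, and the groups overlapped. Its log2 fold change of -0.028 (95% interval -0.066 to 0.0086) did not pass either (edgeR adjusted p = 0.452), and it ran from -0.052 without PBS replicate 1 to -0.0072 without PBS replicate 2. The 95% interval for ACTB had its lower bound at -0.091 with all 4 libraries. ACTB (ENSG00000075624) lies at chr7:5527147-5563784 and ACTG1 (ENSG00000184009) at chr17:81509971-81523847, both on the minus strand of GRCh38 in GENCODE 29.

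The coding parts of ACTB and ACTG1 are 1128 bases each and identical at 91.2% of positions, with a longest identical run of 59 bases. Many processed copies of both genes lie elsewhere in the genome. The files held 12 rows named as ACTB pseudogenes and 21 as ACTG1 pseudogenes, which took 48 and 52 counts against 77 and 69 for ACTB copies, PBS first, and 31 and 28 against 42 and 38 for ACTG1 copies. These were at most 0.115% of the counts of the parent gene. Reads without a unique place are held apart from the gene rows, so levels of the abundant members are uncertain to that extent.

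Thymosin beta-10 (TMSB10) and thymosin beta-4 (TMSB4X) are the main proteins that store actin monomers. TMSB10 (ENSG00000034510) lies at chr2:84905625-84906675 on the plus strand, and TMSB4X (ENSG00000205542) at chrX:12975108-12977227 on the plus strand. Both coding parts are 135 bases long and identical at 98 positions. They are shown because reads wholly within the coding part can be told apart only by the 37 positions that differ. Those positions are in capitals (reference transcripts of GENCODE 29, from start to stop codon, 5′ to 3′). Outside the coding part lie 109 bases before and 252 after in TMSB10. In the longest of 4 principal transcripts of TMSB4X, of 1702 bases, these are 1152 and 415. The shortest has 495 bases in all.
TMSB10: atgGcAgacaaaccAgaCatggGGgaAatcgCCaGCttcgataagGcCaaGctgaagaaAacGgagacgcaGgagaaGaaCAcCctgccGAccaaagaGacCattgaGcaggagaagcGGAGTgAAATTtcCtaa
TMSB4X: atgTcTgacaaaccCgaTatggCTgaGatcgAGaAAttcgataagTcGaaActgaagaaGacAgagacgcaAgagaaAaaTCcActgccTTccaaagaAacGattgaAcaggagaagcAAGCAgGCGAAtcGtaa
The longest run of identical bases between both genes was 10.

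TMSB10 was at 605 and 586 CPM with PBS and at 556 and 550.5 CPM with nanoparticles. Every nanoparticle value lay below every PBS value, and the means were 595 ± 13.6 and 553 ± 4.09 CPM (SD, n = 2). The log2 fold change was -0.11 (SE 0.026, edgeR adjusted p = 0.0359), a drop of the linear level to 0.93 of that with PBS. TMSB4X was at 188.5 and 189.5 CPM with PBS and at 176 and 177 CPM with nanoparticles. Replicates of TMSB4X lay very close together and the groups did not overlap. Its log2 fold change of -0.099 was close to that of TMSB10, but with a standard error of 0.033 it did not pass (edgeR adjusted p = 0.114).

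Whether the thymosins differed from each other in response could be read from their ratio within a library, which scaling cannot move. The TMSB10 to TMSB4X ratio of counts was 3.21 and 3.09 with PBS and 3.16 and 3.12 with nanoparticles, so the groups overlapped. With 2 libraries a group, an exact two-sided permutation test of such a ratio cannot give a p below 0.33, so ratios are given as values. Over 17 alternative analyses the difference between the fold changes of both thymosins ran from -0.033 to 0.034 on the log2 scale.

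Profilin 1 (PFN1) hands monomers to growing filament ends in most cells, and profilin 2 (PFN2) is a related form best known from the brain. PFN1 (ENSG00000108518) lies at chr17:4945652-4949061 and PFN2 (ENSG00000070087) at chr3:149964904-150050788, both on the minus strand. PFN1 was at 1046 and 1072 CPM with PBS and at 1008 and 982.5 CPM with nanoparticles, with no overlap. The log2 fold change was -0.089 (SE 0.023, edgeR adjusted p = 0.0432). PFN2 was at 209 and 220 CPM with PBS and at 219 and 215 CPM with nanoparticles, so its groups overlapped. Its log2 fold change was 0.019 with a 95% interval from -0.052 to 0.09 (edgeR adjusted p = 0.838).

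With all 4 libraries the profilins showed the widest separation of the 4 pairs. The cofilin pair differed more in log2 ratio without nanoparticle replicate 1 (-0.14 against -0.11) and without PBS replicate 1 (-0.104 against -0.091). The PFN1 to PFN2 ratio was 5.01 and 4.88 with PBS and 4.6 and 4.57 with nanoparticles. The mean log2 ratio was lower by 0.11 with nanoparticles, against a pooled SD between replicates of 0.018, and the exact permutation p was 0.333, the smallest that 2 against 2 can give. In every one of 17 alternatives the fold change of PFN1 was below that of PFN2, by -0.13 to -0.067 on the log2 scale. Those that change only scaling, filter or test reuse the same 4 libraries and can hardly move this difference. Without single libraries it ran from -0.126 to -0.091. With the trend of fold change with transcript length removed, the difference was between -0.081 and -0.067, so it shrank but kept its direction in all 4 such fits. The coding parts of both profilins are identical at 60.3% of 423 bases.

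**Figure D2:**
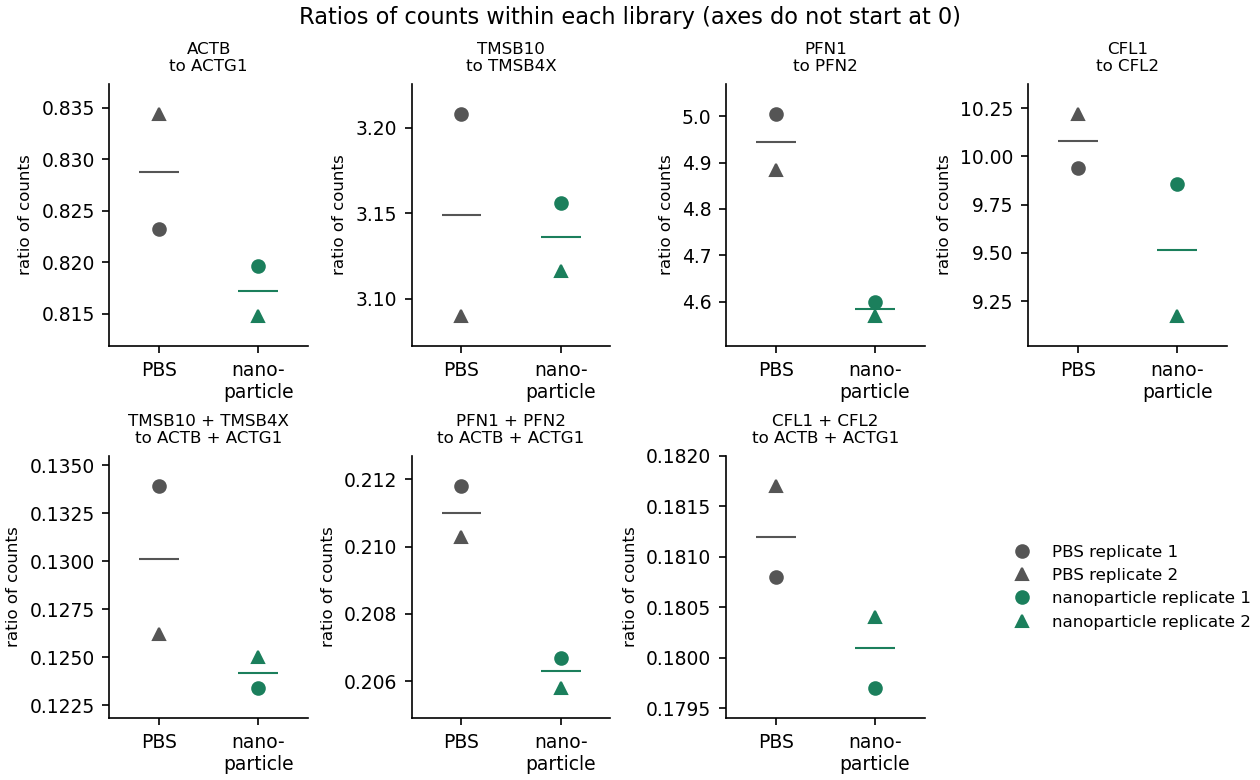
Ratios of counts within each library for the 4 gene pairs and for thymosins, profilins and cofilins against both actins (vertical axes do not start at 0); marks are libraries and short lines group means. The PFN1 to PFN2 ratio falls from 5.01 and 4.88 to 4.6 and 4.57, while the TMSB10 to TMSB4X values of both groups overlap.

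Cofilin 1 (CFL1) is the filament-severing protein of non-muscle cells and cofilin 2 (CFL2) the form of muscle, also made at low levels elsewhere. CFL1 (ENSG00000172757) lies at chr11:65823022-65862026 and CFL2 (ENSG00000165410) at chr14:34706769-34714823, both on the minus strand. CFL1 was at 973 and 1017 CPM with PBS and at 969 and 946.5 CPM with nanoparticles. The nanoparticle values lay below the PBS values, though nanoparticle replicate 1 was within 5 CPM of PBS replicate 1. The log2 fold change of -0.055 (SE 0.025) did not pass (edgeR adjusted p = 0.26), and it was -0.088 without PBS replicate 1 and -0.024 without PBS replicate 2. CFL2 was at 97.9 and 99.5 CPM with PBS and at 98.3 and 103 CPM with nanoparticles, with overlap. Its log2 fold change was 0.029 with a 95% interval from -0.051 to 0.11 (edgeR adjusted p = 0.767).

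The CFL1 to CFL2 ratio was 9.94 and 10.2 with PBS and 9.86 and 9.18 with nanoparticles. Nanoparticle replicate 2 stood apart from the other 3 libraries. The mean log2 ratio was lower by 0.084 with a pooled SD of 0.055. The difference between the fold changes ran from -0.14 to 0.049 over the alternatives. It turned above 0 in 2 of 17, both among the 4 fits with the length relation removed. CFL2 has by far the longest transcripts of the group, with principal transcripts of 3131 and 6747 bases against 1234 and 1878 for CFL1.

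CAPZB encodes the beta subunit of capping protein, and CAP1 the cyclase-associated protein that helps cofilin and recharges monomers. CAPZB (ENSG00000077549) lies at chr1:19338776-19485539 on the minus strand and CAP1 (ENSG00000131236) at chr1:40040233-40072649 on the plus strand. CAPZB was at 329 and 344 CPM with PBS and at 333 and 322 CPM with nanoparticles, so the groups overlapped (log2 -0.04, SE 0.031, edgeR adjusted p = 0.566). Without PBS replicate 1 its fold change was -0.073, and without PBS replicate 2 it was -0.0096. CAP1 was at 497 and 498.5 CPM with PBS and at 487 and 485 CPM with nanoparticles. Both nanoparticle values of CAP1 were lower, but by a log2 fold change of only -0.034 (SE 0.026, edgeR adjusted p = 0.556). The 95% interval for CAP1 ran from -0.089 to 0.02.

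Some exons of the members overlap other genes in GENCODE 29, and the sources used here do not say how the counting treated strand. CAP1 shares 1189 exonic bases with PPT1 on the opposite strand, which had 4711 and 4815 counts with PBS and 5112 and 5131 with nanoparticles. CFL1 shares 759 with MUS81 and 357 with SNX32, CAPZB 253 with MICOS10, PFN1 111 with ENO3 and TMSB10 13 with TRABD2A, all on the opposite strand. PFN2 shares 28 with ANKUB1 on its own strand, and ANKUB1 had no count.

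Levels of different genes were compared as CPM per kilobase, with the median length of a gene's principal transcripts. ACTG1 was highest at 1636 to 1709 CPM per kilobase over the 4 libraries, followed by ACTB at 1442 to 1542. TMSB10 came next at 1110 to 1220, then PFN1 at 761 to 830 and CFL1 at 608 to 654. CAPZB (375 to 401), TMSB4X (253 to 272) and CAP1 (219 to 225) formed the middle of the order. The only principal transcript of CAPZB, of 858 bases, has 39 bases before its coding part and 0 after it. A longer transcript would lower the CAPZB level per kilobase, and none was tried. PFN2 was at 92.4 to 97.1 and CFL2 lowest at 19.8 to 20.9 CPM per kilobase. No neighbours in this order overlapped between libraries, but the choice of transcript moved some levels further than the libraries did. TMSB4X, with principal transcripts from 495 to 1702 bases, could lie anywhere from 107 to 369 CPM per kilobase, which spans CAP1. ACTB (1400 to 1798) and ACTG1 (1448 to 2123) also overlapped once the transcript was allowed to vary.

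**Figure D3:**
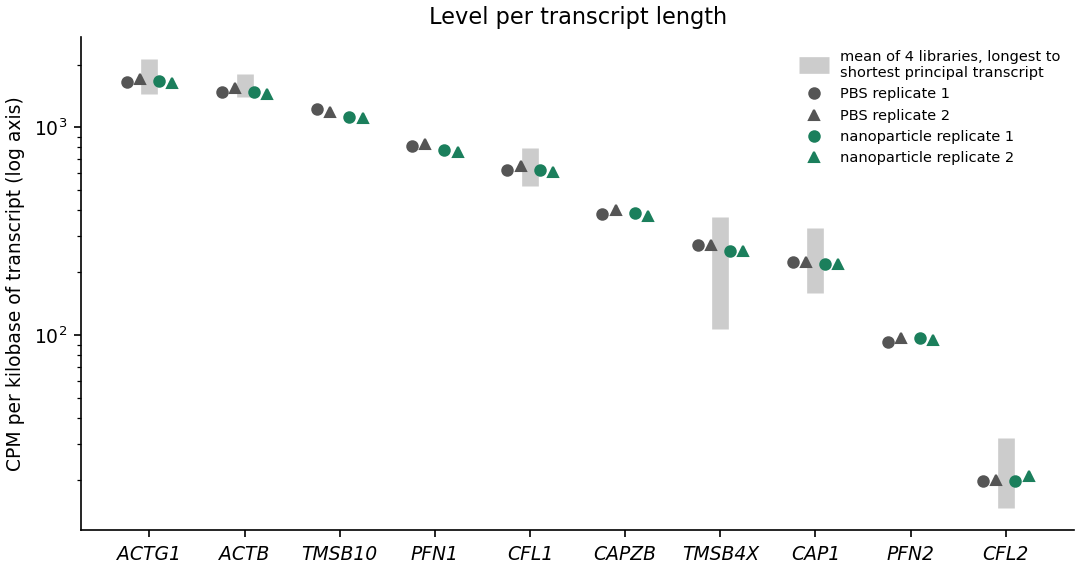
CPM per kilobase of transcript (log axis) for each gene in every library, ordered from high to low, with marks for libraries and a grey bar for the mean level computed with the longest and the shortest principal transcript. The libraries of a gene nearly coincide on this scale, the actins are highest, CFL2 is lowest at 19.8 to 20.9, and the bar of TMSB4X runs from 107 to 369.

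The monomer-binding genes were also set against actin itself, in ratios chosen after the values had been seen. Summed counts of both thymosins were 0.134 and 0.126 of those of both actins with PBS and 0.123 and 0.125 with nanoparticles. For the profilins the ratio to actin was 0.212 and 0.21 with PBS and 0.207 and 0.206 with nanoparticles, and the spread between replicates was small. The cofilin ratio was 0.181 and 0.182 with PBS and 0.18 in both nanoparticle libraries. All of these ratios were lower with nanoparticles and none overlapped between groups (exact permutation p = 0.333 each). They share the same actin counts, so they are not independent. The nearest cofilin values were 0.1808 with PBS and 0.1804 with nanoparticles, and the nearest thymosin values 0.1262 and 0.125. Of single tested genes, 23.2% were lower and 23.7% higher without overlap.

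The group was picked as genes with short, abundant mRNAs, and most but not all fitted that description. In 9 of 10 members the median principal transcript was shorter than the 2652 bases of the median tested gene, CFL2 being the exception. TMSB10 was the shortest at 496 bases. By mean CPM ACTG1 ranked 4 and ACTB 9 among all tested genes, PFN1 43 and CFL1 47, whereas PFN2 ranked 986, TMSB4X 1238 and CFL2 2719. Over all genes above 5 CPM, fold changes in these libraries moved with transcript length. Ordered by median principal transcript and parted into 4 bins, the 2769 shortest genes (median 1347 bases) come first, and there the median log2 fold change was -0.048 and 72.2% of genes were below 0. In the next 3 bins the median was -0.012, 0.015 and 0.056, the last at a median length of 6341 bases. The values were therefore computed again with that relation removed from each library. TMSB10 then had a log2 fold change of -0.028 (edgeR adjusted p = 0.708) with the longest principal transcript of each gene as its length. With the median transcript it was -0.057 (adjusted p = 0.343) and with the shortest -0.067 (adjusted p = 0.234). PFN1 moved to -0.037, -0.043 and -0.044 in the same 3 fits (edgeR adjusted p = 0.526, 0.433 and 0.41).

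Of the other 8 members none passed when the length relation was removed. ACTB moved to between -0.017 and -0.0092 in the 3 fits, CFL1 to between -0.021 and -0.0086, and ACTG1 to between -0.0051 and 0.01. CAPZB, at -0.04 in the reported test, came to between 0.0098 and 0.025. All of these fits used 858 bases for CAPZB, a transcript with 0 bases after its coding part, so its values rest on that length. TMSB4X was at between -0.061 and -0.046. CAP1 hardly moved with the longest transcript (-0.032) but came to -0.014 with the median and 0.0055 with the shortest. CFL2 went from 0.029 to -0.023, -0.0017 and 0.024 in the same order. PFN2 moved away from 0, from 0.019 to between 0.034 and 0.042. The median of the 10 members went from -0.045 to -0.022, -0.015 and -0.0015 with the longest, the median and the shortest transcript as length.

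**Figure D4:**
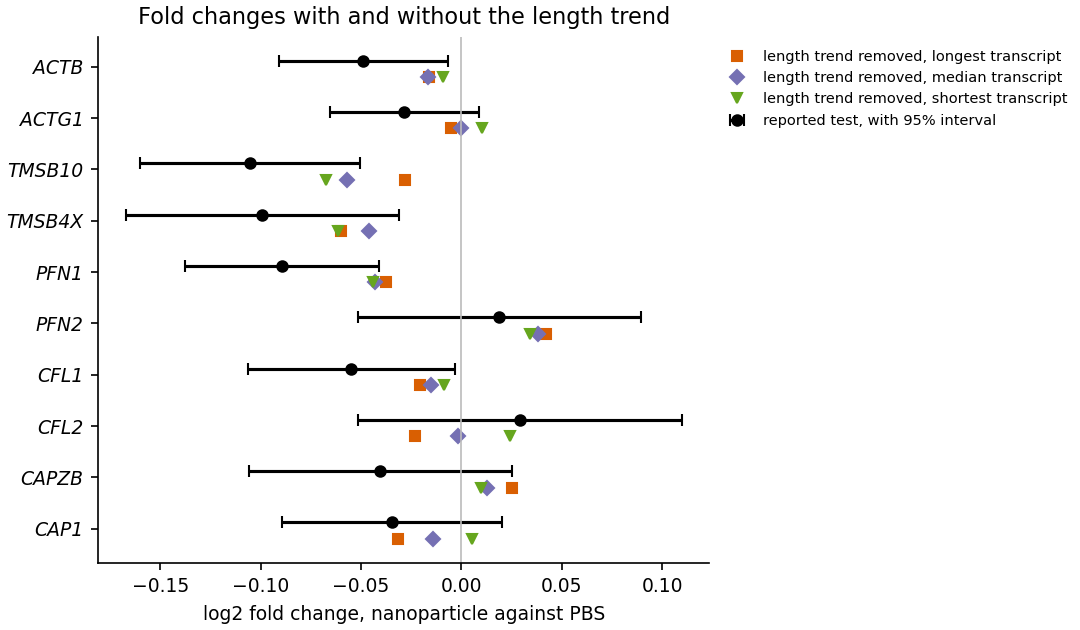
Log2 fold change of each gene, nanoparticle against PBS, in the reported test (black, with 95% interval) and with the length relation removed using the longest, median or shortest principal transcript (coloured marks). The black marks of TMSB10 and PFN1 are at -0.11 and -0.089, and all coloured marks of these genes lie nearer to 0.

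Other genes with the pattern of this group were sought over the 4 libraries. The mean centred log2 level of the 10 members was 0.0062 and 0.039 with PBS and -0.015 and -0.03 with nanoparticles, replicate 1 first. PBS replicate 2 was thus the highest library and differed more from PBS replicate 1 than that did from nanoparticle replicate 1. Among 2702 other genes of at least 100 CPM, the 5 closest by Euclidean distance were PHB2 (0.0032), RAC1 (0.0063), MRPS7 (0.0073), FKBP10 (0.0077) and BYSL (0.0086). RAC1, a small GTPase that starts actin assembly at the leading edge, was at 431 and 440 CPM with PBS and at 424 and 422 CPM with nanoparticles (log2 -0.043, edgeR adjusted p = 0.464). None of these 5 genes passed the test, which follows largely from their choice, as they were picked for differences as small as the members' mean.

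The promoter of ACTG1 is shown because actin genes are classical targets of serum response factor (SRF), whose cofactors MRTFA and MRTFB are held back by free actin monomers. Its 130 bases at chr17:81512824-81512953 (GRCh38.p14, RefSeq, minus strand, upstream of the transcription start) carry a CArG box, the SRF motif, in capitals.
ACTG1 promoter: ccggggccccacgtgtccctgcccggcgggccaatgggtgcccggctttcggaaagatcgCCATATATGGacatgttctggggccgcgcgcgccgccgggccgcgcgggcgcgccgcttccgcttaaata
The box begins 94 bases before the start, and its pattern reads the same on both strands. A CArG box was counted only as an exact match to CC, a run of A or T of fixed length, and GG. Boxes with a mismatch or lying elsewhere were not sought. RefSeq promoter windows were found for 8 of the 10 genes (not for ACTB and PFN2), and 1 of the 8 held a CArG box within 250 bases upstream. Over all 35116 promoter windows 1.16% held one. That share is per window, whereas a gene was counted here if any of its windows held a box, so the shares are not in like units. In the list of SRF and MRTF factors and targets, it was present for 5 of 11 genes with a window, EGR1, FHL1, FHL2, SRF and TGFB1I1. ACTG1 itself did not pass the test, as given above.

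Of that SRF and MRTF list 13 of 14 genes were tested, 1 passed, and it was lower. Over all tested genes 0.83% were called lower and 1.75% higher. At an unadjusted p under 0.05 there were 3 higher and 3 lower genes, 23.1% of the list each way. The shares of all tested genes at that p were 9.18% higher and 7.61% lower. Filtering at a mean of 50 counts, and likewise the replicate block, called 1 higher and 3 lower. The additional genes were FOS (0.38 on the log2 scale in both fits), TGFB1I1 (-0.3 and -0.29) and CCN1 (-0.11 in both). Over all genes the filter at 50 counts called 3.11% higher and 1.69% lower, and the block 3.09% and 1.72%. Without nanoparticle replicate 2 the single call was CCN1 (log2 -0.18) in place of CCN2. DESeq2, no filter, the 4 length fits and omission of any other library called none. CCN2, a secreted matrix protein that responds to SRF and to YAP, was at 189 and 202 CPM with PBS and at 173 and 179 CPM with nanoparticles. Its log2 fold change was -0.15 (SE 0.037, edgeR adjusted p = 0.0296), and over 17 alternatives it stayed between -0.2 and -0.1 and passed in 7. With the length relation removed it was between -0.14 and -0.13 and did not pass (edgeR adjusted p between 0.0549 and 0.0943). None of the factors themselves passed, with SRF at log2 0.041 (95% interval -0.035 to 0.12), MRTFA at 0.024 (-0.11 to 0.16) and MRTFB at 0.11 (-0.08 to 0.29). The list median was 0.024, with values running from -0.29 for TGFB1I1 to 0.59 for EGR3, neither past the threshold.

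In the remaining 6 pathway lists none of 92 tested genes passed edgeR's quasi-likelihood test, while 9 higher and 13 lower genes, 23.9% in all, had an unadjusted p under 0.05. Over all tested genes 2648, or 16.8%, did. DESeq2 and limma-voom also called none, and 10 of the 17 alternatives called 1 to 3 of these genes. Of 22 tested genes for monomer binding, severing and capping 13 had a fold change below 0 (median -0.029). The alpha subunits of capping protein, partners of CAPZB, went in opposite directions without passing, CAPZA1 at log2 -0.072 and CAPZA2 at 0.059. DSTN, a close relative of cofilin, was at log2 -0.031. Among 13 kinases and phosphatases that act on cofilin 6 were below 0 (median 0.0086), and among 16 formins and other elongation factors 8 were (median 0.001). Of 22 tropomyosin, crosslinker and myosin genes 15 were below 0 (median -0.035). Of 17 genes for folding and processing of actin, chiefly the CCT chaperonin and prefoldin, 14 were below 0 (median -0.039). Over all tested genes 7856 of 15778 were below 0.

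**Figure D5:**
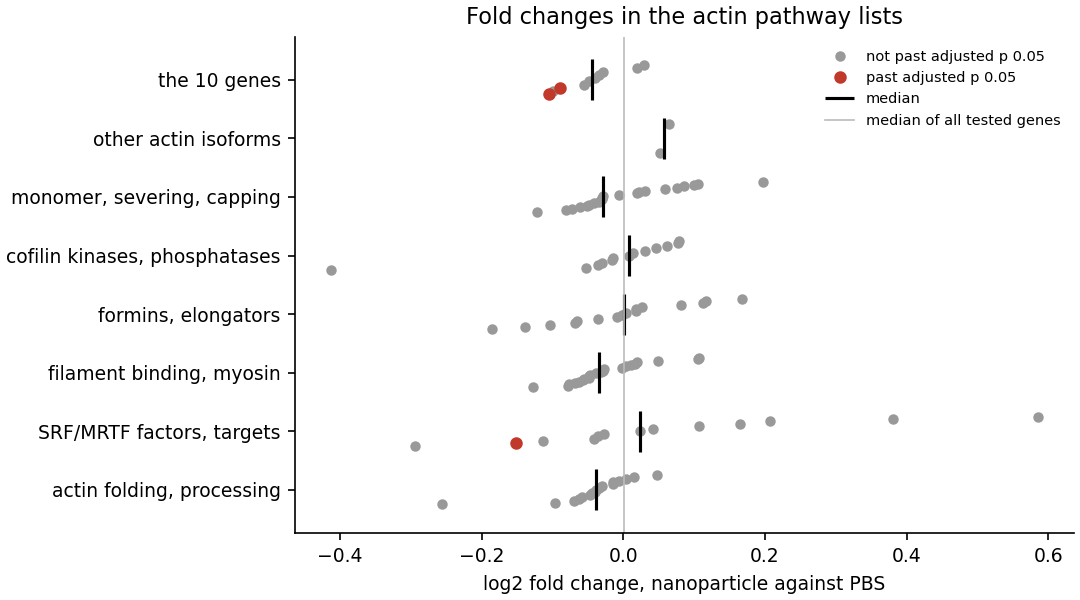
Log2 fold change, nanoparticle against PBS, of each tested gene in the group of 10 and in 7 lists of the actin pathway (grey, or red where past an adjusted p of 0.05), with list medians as black bars and the median of all tested genes as a grey line. Red marks appear for TMSB10 and PFN1 in the first row and for CCN2 in the SRF/MRTF row.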

How the data were processed

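The values deposited by the authors are raw read counts for each Ensembl gene in each library. Per the submitters' processing notes, reads were handled with HTSeq 2.0.2, STAR 2.7.6a, Picard, cutadapt 3.5 and bcl2fastq 2.20 on build GRCh38. The sources used here give neither annotation release nor strand setting. Reads given to no gene (13.7% to 14.8% per library) were left out. A gene name table supplied symbols for 61369 rows, and GENCODE 29 gave lengths, GC content and coordinates; its release may differ from that used for counting. Length was known for 98.2% of tested genes.

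Genes were filtered with filterByExpr, scaled by TMM and tested two-sided in R 4.3.3 with edgeR 4.0.16 (glmQLFit, glmQLFTest) and Benjamini-Hochberg adjustment over all tested genes. Standard errors came from the coefficient and its F statistic. Shares of counts had Wilson 95% intervals with half-widths of at most 0.00414 percentage points, counting error only. Alternatives were other scalings and filters, DESeq2 1.42.0, limma-voom (limma 3.58.1), a block for the replicate number, omission of mitochondrial genes or of each library, and removing a robust spline (MASS 7.3.60.0.1, 4 degrees of freedom) that relates log2 CPM to length, or to length and GC, fitted in each library over genes above 5 CPM. The length fits with the median and the shortest principal transcript were added after the data were seen.

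The members, lists and alternatives were chosen with earlier results of these data known. Named were all 10 members, up to 4 genes past the threshold per list, smallest p first, the 5 genes of nearest pattern, the muscle actins, and the pseudogene rows with most counts; further list genes were named after their values were seen. On simulated counts for this comparison (15814 genes tested), 70% of 1.2-fold and 98% of 1.5-fold changes were recovered, with 5.15% of calls false. The simulation gave all genes the same dispersion, put in no relation to transcript length and changed only well-counted genes. Its share of false calls therefore does not measure that of the real libraries. Figures were drawn with matplotlib 3.10.9.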

Additional observations from a re-analysis of the deposited data

How the results depend on the processing

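TMSB10 and PFN1 were the members called lower in the reported test, and their count was 2 with RLE, upper-quartile and total-count scaling, a mean of at least 50 counts, limma-voom, the replicate block, and without mitochondrial genes. The count was 0 without a low-count filter, by DESeq2's Wald test, in all 4 fits that removed the length relation (1 of them with GC too), and without each library in turn (0 to 0). Over all genes 276 were higher and 131 lower in the reported test, 66 and 24 by DESeq2, and 390 and 212 with a mean of at least 50 counts. They were 125 and 89, 118 and 90, and 142 and 99 with length removed by the longest, median and shortest transcript, and 151 and 119 with GC as well. They were 155 and 45 without nanoparticle replicate 1, and 55 and 21 without nanoparticle replicate 2. No gene passed without PBS replicate 1, without PBS replicate 2 or without a low-count filter (edgeR, lowest adjusted p = 0.212, 0.139 and 0.544, with 1562, 1672 and 2297 genes at an unadjusted p under 0.05); the cause was not tested. Upper-quartile scaling gave 223 higher and 190 lower.

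The median log2 fold change of the 10 members was -0.022, -0.021, -0.015 and -0.0015 with the longest transcript, longest with GC, median and shortest transcript as length, and from -0.077 to -0.021 without single libraries, against a pooled SD of 0.0182 between replicates; -0.077 was without PBS replicate 1 and -0.021 without PBS replicate 2. Signs turned for CAPZB (0.025, 0.023, 0.013 and 0.0098) in those 4 fits, for CFL2 in 3 of them (-0.023, -0.064 and -0.0017) and without nanoparticle replicate 2 (-0.0055, in a range up to 0.064 without single libraries). They also turned for ACTG1 (0.0102) and CAP1 (0.0055) with the shortest transcript, and for PFN2 without PBS replicate 1 (-0.018, in a range up to 0.0545). None of these had passed.

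With the replicate number as a block 487 genes were higher and 272 lower, and TMSB10 (-0.11, edgeR adjusted p = 0.0174) and PFN1 (-0.089, 0.0398) also passed. That fit reuses the same 4 libraries and leaves fewer residual degrees of freedom than the reported test. Its lowest edgeR adjusted p over all genes was 1.03e-184, against 2.09e-08 in the reported test. Same-numbered libraries deviated together with a correlation of 0.033 across 11104 genes. With 2 libraries a group, this single value cannot tell whether same-numbered libraries shared a culture or a day, which the labels do not state.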

Other observations

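Of the muscle and other actin isoforms ACTA2, smooth muscle actin, was present at a low level, with 162 and 151 counts with PBS and 167 and 199 with nanoparticles (6.675 to 7.99 CPM). ACTC1, cardiac actin, had 22 and 22 against 26 and 25. ACTA1, ACTG2 and ACTBL2 had at most 5 counts in any library and were not tested. Neither ACTA2 (log2 0.064) nor ACTC1 (log2 0.051) passed the test.

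Rows named as pseudogenes of the 10 genes were also almost empty. Of 62 such rows 27 had any count, with 147 and 135 counts in all with PBS and 202 and 180 with nanoparticles. The rows with most counts were ACTBP8 (32 and 29 with PBS, 56 and 44 with nanoparticles) and PFN1P1 (22 and 16 against 27 and 23). Relative to its parent gene the pseudogene count was highest for TMSB4X, at 0.643% and 0.472% with PBS and 0.59% and 0.773% with nanoparticles. TMSB10 had a single pseudogene count in all 4 libraries together.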
